A study of Homo sapiens with 7 samples.

Results

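The Notch pathway was followed through 10 of its genes in esophageal squamous cell carcinoma (ESCC) cells in which the transcription factors TP63 or SOX2, or the long non-coding RNA CCAT1, had been silenced. The genes were the receptors NOTCH1, NOTCH2 and NOTCH3, the ligands JAG1, JAG2 and DLL1, and the targets HES1, HES5, HEY1 and NRARP. They were chosen by name, not by a rule on their values, but with earlier results of these data known. All 10 were found among the 56236 genes to which the transcripts were summed. RNA-Seq was available for 2 human ESCC lines. TE5 cells carried a non-targeting scramble shRNA or an shRNA against TP63, SOX2 or CCAT1 (4 libraries). KYSE140 cells carried the scramble shRNA or an shRNA against TP63 or SOX2 (3 libraries). The shRNAs were delivered in a lentiviral pLKO.1 vector. Each condition was sequenced as 1 library per line with 1 shRNA per target, so a difference between a pair of libraries has no replicate error of its own and was given no p-value.

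Notch receptors are single-pass proteins of the cell surface that are activated by ligands of the Jagged and Delta families on a neighbouring cell. Ligand binding exposes the receptor to cleavage by ADAM proteases and then by gamma-secretase, and the released intracellular domain enters the nucleus, binds the DNA-binding protein RBPJ and switches on target genes. HES1, HES5 and HEY1 encode basic helix-loop-helix repressors, and NRARP encodes a small ankyrin-repeat protein that limits the pathway that induced it. In stratified squamous epithelium, Notch signalling accompanies the exit of basal cells toward differentiation, whereas TP63 maintains the basal state.

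RBPJ recognises DNA with the core TGGGAA. The promoter windows of RefSeq (GRCh38.p14, from 250 bases before to 50 bases after the gene start) held 8 of the 10 genes, DLL1 and HEY1 being the others. TGGGAA was searched on both strands and was present in 2 of these 8 promoters, those of HES1 and HES5, each of which held it at 2 positions. In HES1 both lay on the gene's strand, and HES5 held 1 on each strand. Across all 27305 promoters of the same length, 24.3% held TGGGAA at least once and 3.81% at 2 or more positions. The longer word GTGGGAA, which contains TGGGAA, was present in 6.28% of all promoters, at 1 position in HES1 and at 2 positions in HES5. The following stretches, upstream of the gene start and read along the gene's strand, are shown because they carry those matches, with TGGGAA or its reverse complement TTCCCA in capitals. The HES1 stretch lies at chr3:194136056-194136085 (plus strand) and those of HES5 at chr1:2530474-2530495 and chr1:2530330-2530357 (minus strand).
HES1: agttactgTGGGAAagaaagttTGGGAAgt
HES5, distal: cgagcgcgTTCCCAcagcccgg
HES5, proximal: ttggccgcggagtgTGGGAAcggccgcg
The letters CACNAG, known as the N-box bound by HES-type repressors, occurred in 5 of the 8 promoters, against 38.0% of all promoters. NOTCH1, NOTCH2, NOTCH3, JAG1, JAG2 and NRARP held no TGGGAA in this window. A match describes the letters only.

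The libraries summed to between 68532611 and 98036494 estimated counts. The epithelial character of the lines was visible in every library: at least 7 of 8 squamous markers reached 1 TPM (a level corrected for transcript length and library size). The 8 markers were KRT5, KRT14, KRT6A, KRT13, DSG3, PKP1, TP63 and SOX2, so the list includes the silenced factors themselves. The summed level of the 8 markers lay between 537 and 1355 TPM in TE5 and between 8648 and 18546 TPM in KYSE140. Blood markers (PTPRC, CD3E and CD14) were each under 1 TPM throughout. COL1A1 was the only fibroblast marker at 1 TPM in every library, with up to 44.4 TPM. Of the endothelial markers, CDH5 was at 8.36 TPM in TE5 cells with TP63 shRNA and between 1.70 and 3.88 TPM in the other TE5 libraries, and all were under 1 TPM in KYSE140. TP63 was at 25.6% of its scramble count in TE5 cells with TP63 shRNA and at 26.1% in KYSE140. SOX2 was at 39.5% of scramble in TE5 cells with SOX2 shRNA but at 76.9% in KYSE140, a weaker knockdown. In counts normalised by TMM, SOX2 was also lower with TP63 shRNA in TE5 (7980 against 12014) but not in KYSE140 (29563 against 28416). TP63 was higher with SOX2 shRNA in TE5 (31137 against 26846) and in KYSE140 (60134 against 47704). The part of these changes in the Notch values was not tested. CCAT1 itself was not analysed here, so its silencing was not checked in the library that carries its shRNA. The labels place the TE5 scramble library on another flow cell than the TE5 knockdowns and the KYSE140 scramble library on another lane than the KYSE140 knockdowns, so that silencing and lane cannot be told apart in any comparison with a scramble. The knockdown libraries of a line shared a lane. TE5 and KYSE140 libraries never shared a lane, so line and lane cannot be told apart either.

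The 3 receptors were transcribed in both lines, but a different one led in each. In TE5, NOTCH1 was highest, at 20.2 TPM in scramble, 11.2 with TP63 shRNA, 22.6 with SOX2 shRNA and 16.9 with CCAT1 shRNA. NOTCH2 stood at 10.9, 10.1, 17.1 and 9.32 TPM in the same order, and NOTCH3 was lowest, between 4.61 and 5.29 TPM. NOTCH1 thus supplied between 42.0% and 56.5% of the receptor TPM of TE5 and NOTCH3 between 10.7% and 19.9%.

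In KYSE140 the order was NOTCH3, NOTCH1, NOTCH2. NOTCH3 reached 139 TPM in scramble, 116 with TP63 shRNA and 190 with SOX2 shRNA, which was between 74.0% and 74.8% of the receptor TPM. NOTCH1 stood at 38.7, 31.2 and 49.4 TPM, and NOTCH2 at 9.29, 9.70 and 14.8 TPM. No KYSE140 library overlapped a TE5 library for NOTCH3 or NOTCH1, whereas the NOTCH2 values of the lines overlapped. How many of all features fail to overlap in this way was not counted. In edgeR's quasi-likelihood test across all features, with the shRNA as the other term, TE5 was lower than KYSE140 for NOTCH3 by a log2 difference of -5.38 (SE 0.30, adjusted p = 5.8e-05) and for NOTCH1 by -1.41 (SE 0.14, adjusted p = 0.00043). NOTCH2 did not pass (log2 difference -0.06, SE 0.11, adjusted p = 0.64). Each line entered this test as its scramble, TP63 shRNA and SOX2 shRNA libraries. The SE therefore does not measure the spread between replicates of a condition. The 2 lines differ at most genes: 64.0% of all features were called in this comparison, and 30.7% were called lower in TE5.

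Most of each receptor's reads belonged to 1 full-length transcript. ENST00000256646 held 98.4% of the NOTCH2 counts and ENST00000263388 held 96.0% of the NOTCH3 counts. The NOTCH1 counts lay to 99.5% on ENST00000277541, which the annotation used here lacks and which was placed at NOTCH1 by its length of 9371 bases. In NOTCH3 of TE5, a short coding fragment of 559 bases (ENST00000597756) contributed between 0 and 1.92 TPM from at most 49.8 estimated counts. The full-length NOTCH3 transcript alone stood at 4.08 TPM in TE5 scramble, 3.93 with TP63 shRNA, 2.48 with SOX2 shRNA and 2.65 with CCAT1 shRNA, so that the even total conceals a spread in the long transcript. NOTCH2 shared 9.55% of its words of 31 bases, the unit that Kallisto matches, with other genes, chiefly its partial copy NOTCH2NLA. Reads could be divided between these copies, which leaves the NOTCH2 values less certain than those of NOTCH1, which shared none. JAG2 shared 6.85% of its words with the gene ENSG00000257622. In reverse complement, 340 of the 3787 words of DLL1 and 278 of the 9407 words of JAG1 occurred in other genes, and whether the libraries kept strand is not given in the sources used here.

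JAG2 led the ligands in every library. Its level was 91.8 TPM in TE5 scramble, 30.4 with TP63 shRNA, 119 with SOX2 shRNA and 66.5 with CCAT1 shRNA, and 241, 226 and 312 TPM in KYSE140 with scramble, TP63 and SOX2 shRNA. Retained-intron transcripts made up the larger part of this sum: the 2 coding transcripts gave 35.3, 12.5, 41.7 and 21.7 TPM in TE5 and 94.6, 83.2 and 119 TPM in KYSE140, between 32.6% and 41.1% of the JAG2 TPM but between 69.5% and 76.1% of its counts. On coding transcripts alone, JAG2 of TE5 lay below JAG1, and in KYSE140 it stayed above it.

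JAG1, the ligand whose loss causes Alagille syndrome, stood at 50.4, 26.7, 65.8 and 46.9 TPM in the TE5 libraries and at 37.6, 21.9 and 46.1 TPM in KYSE140. The library with TP63 shRNA was the lowest and that with SOX2 shRNA the highest in each line. DLL1, the Delta-family ligand, stood at 11.6, 5.92, 8.56 and 7.95 TPM in TE5 and at 40.5, 25.9 and 27.7 TPM in KYSE140. Here the scramble was the highest and TP63 shRNA the lowest in each line. TE5 was lower than KYSE140 for JAG2 (log2 difference -2.12, SE 0.29, edgeR adjusted p = 0.0014) and for DLL1 (-2.13, SE 0.13, adjusted p = 8.1e-05), while JAG1 did not pass (0.16, SE 0.11, adjusted p = 0.24).

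HES1 was the most abundant target in every library. It stood at 50.1, 51.4, 60.3 and 64.4 TPM in TE5 with scramble, TP63, SOX2 and CCAT1 shRNA, and at 137, 108 and 104 TPM in KYSE140 with scramble, TP63 and SOX2 shRNA. HEY1 stood at 13.1, 9.99, 19.9 and 9.91 TPM in TE5 and at 28.8, 28.8 and 19.3 TPM in KYSE140. NRARP stood at 25.7, 12.3, 14.2 and 27.6 TPM in TE5 and at 18.3, 15.6 and 18.2 TPM in KYSE140. In TPM, the lines did not overlap for HES1, and they overlapped for HEY1 and NRARP. The share of all features without overlap was not counted.

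HES1 and HEY1 were lower in TE5 than in KYSE140 (log2 difference -1.35, SE 0.14, edgeR adjusted p = 0.00050 for HES1, and -1.16, SE 0.27, adjusted p = 0.012 for HEY1), and NRARP did not pass (-0.33, SE 0.21, adjusted p = 0.22). HES5 was barely transcribed. It had 18 counts in TE5 scramble, between 5 and 7 in the TE5 knockdowns and at most 2 in KYSE140, and the filter on low counts removed it from the fit. In all, 6 of the 9 genes tested were called between the lines, each lower in TE5. Of all features, 64.0% were called in either direction and 30.7% were called lower in TE5.

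**Figure D1:**
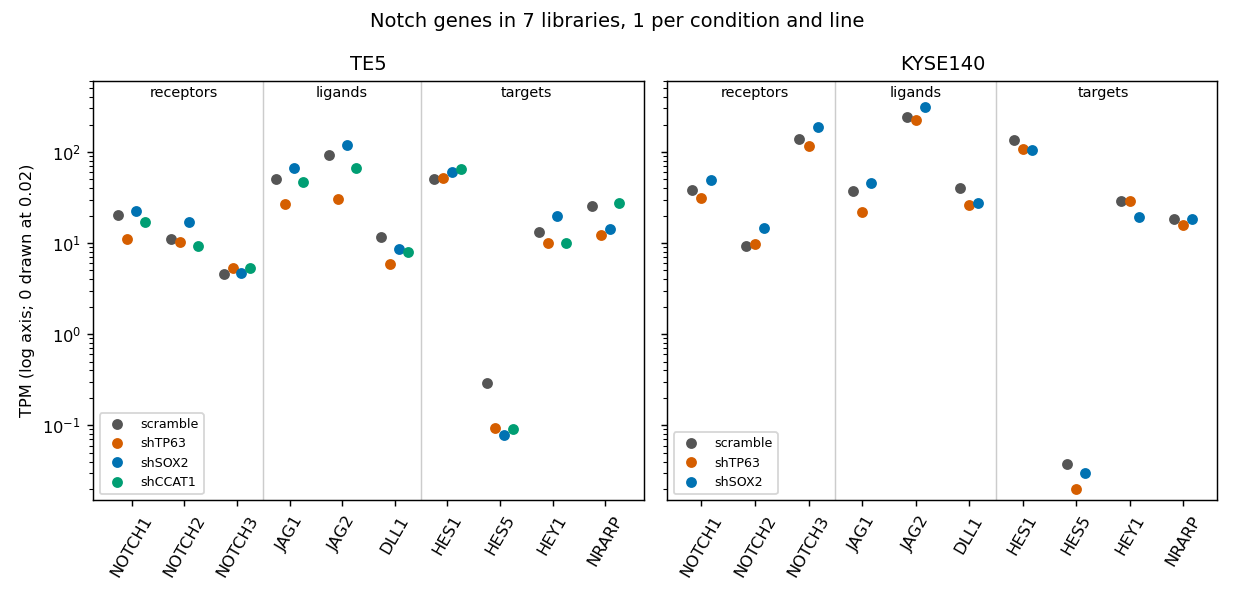
Levels of the 10 Notch genes in TPM (log axis) in TE5 (4 libraries) and KYSE140 (3 libraries), 1 point per library, coloured by shRNA; a value of 0 is drawn at 0.02. NOTCH3 lies between 116 and 190 TPM in KYSE140 and between 4.61 and 5.29 TPM in TE5, and HES5 lies under 1 TPM in every library.

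To ask which of these genes followed TP63, each knockdown was set against the scramble of its line. Counts were normalised by TMM, and each log2 change is given with a 95% interval that covers counting error only. In bulk RNA, fewer cells that transcribe a gene and less RNA per cell cannot be told apart. Upon silencing of TP63 in TE5, all 10 genes had lower normalised counts than in scramble. So had 46.8% of all features and 63.0% of those with at least 1000 counts. Past a log2 change of -1 were 6 of the 10 genes (6.46% of all features with at least 10 counts were). The 3 ligands were among those 6. JAG2 had 4741 normalised counts against 15260 in scramble, a log2 change of -1.69 (-1.73 to -1.64). DLL1 had 910 against 2011 (-1.14, -1.25 to -1.04), and JAG1 had 7627 against 16076 (-1.08, -1.11 to -1.04). The ligands were therefore at 31.1%, 45.2% and 47.4% of scramble.

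Of the receptors, NOTCH1 had 4961 normalised counts against 10323 (log2 change -1.06, -1.10 to -1.01). NOTCH2 (-0.26) and NOTCH3 (-0.24) differed less. Of the targets, NRARP had 1537 against 3628 (-1.24, -1.32 to -1.16), HEY1 had 1043 against 1478 (-0.50, -0.61 to -0.39) and HES1 had 3565 against 3960 (-0.15, -0.21 to -0.09). HES1, the most abundant target, was thus at 90.0% of scramble where NRARP was at 42.4%. HES5 was the remaining gene past the fold, with 7 counts against 18 and an interval from -3.30 to -0.47. It entered only through its scramble count and did so in all 3 TE5 comparisons.

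The median over the 10 genes was -1.07, against 0.05 over all features. Among features with at least 1000 counts, 5 of 9 Notch genes were past -1, against 4.22% of all, and the medians were -1.06 and -0.14. Scaling moved these values. Total counts in place of TMM shift every log2 change of this comparison by 0.16. That left 3 of the 10 genes past -1 (JAG2, NRARP and HES5) and put HES1 at 0.01. The share of all features past -1 was not counted under that scaling. On TPM, NOTCH3 was at 0.20 and HES1 at 0.04. The summed level of the squamous markers was lower in the same library, 537 TPM against 1355 in TE5 scramble. This sum includes TP63 itself (33.6 against 127 TPM). It was carried mostly by KRT5 (201 against 621) and KRT6A (55.6 against 315). KRT13 alone was higher on TPM (79.1 against 74.3), but it was lower in normalised counts (4932 against 5378). The part of these markers in the Notch values was not tested.

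Upon silencing of TP63 in KYSE140, 8 of the 9 genes that passed the filter were lower than in scramble. So were 45.3% of all features and 51.3% of those with at least 1000 counts. None of the 9 genes was past a log2 change of -1 (4.91% of all features and 1.11% of those with at least 1000 counts were). JAG1 differed most, with 7654 normalised counts against 13406 (-0.81, -0.85 to -0.77), followed by DLL1 with 4862 against 7782 (-0.68, -0.73 to -0.62). NOTCH1 had 16360 against 21489 (-0.39, -0.42 to -0.36) and HES1 had 9202 against 12054 (-0.39, -0.43 to -0.35). JAG2 and NRARP, past the fold in TE5, stood at -0.19 and -0.27. NOTCH3 stood at -0.27, NOTCH2 at 0.06 and HEY1 at -0.05, the last with an interval that included 0 (-0.12 to 0.02). The median over the 9 genes was -0.27, against 0.05 over all features. The squamous markers, TP63 among them, summed to 8648 TPM, against 13681 in KYSE140 scramble, and their part was not tested here either. NOTCH1, JAG1, JAG2, DLL1, NRARP and HEY1 were thus lower in both lines and by less in KYSE140, where the HEY1 interval included 0. HES1 and NOTCH3 were lower by more in KYSE140, NOTCH3 only slightly (-0.27 against -0.24 in TE5). On TPM, HES1 and NOTCH3 stood above scramble in TE5 (0.04 and 0.20). These differences between the lines were not tested.

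**Figure D2:**
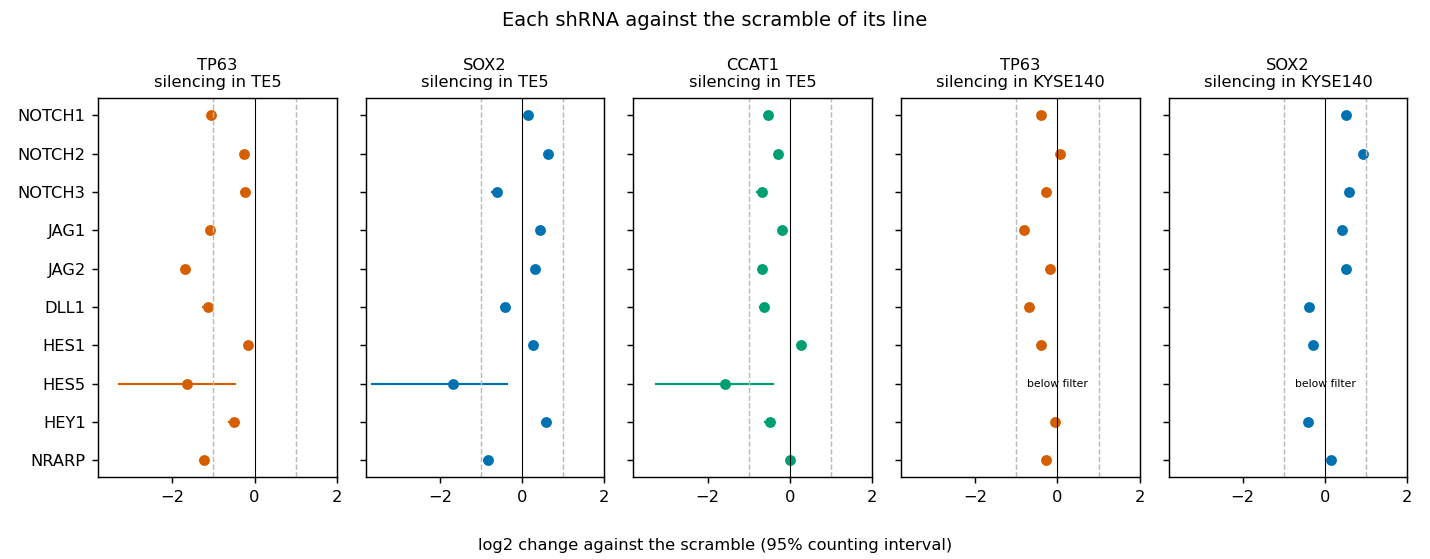
Log2 change of normalised counts of each shRNA against the scramble of its line, with 95% counting intervals as bars, in 3 comparisons of TE5 and 2 of KYSE140; dashed lines mark -1 and 1. After TP63 silencing all 3 ligands lie left of -1 in TE5 and between -0.81 and -0.19 in KYSE140, and the wide bars belong to HES5.

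With the lines combined as replicates of TP63 silencing (6 libraries, 2 residual degrees of freedom), all 9 genes tested had a negative estimate. The median estimate over all features was 0.04. JAG1 had a log2 change of -0.93 (SE 0.13, edgeR adjusted p = 0.14), DLL1 of -0.89 (SE 0.16, adjusted p = 0.16), NOTCH1 of -0.71 (SE 0.17, adjusted p = 0.21), NRARP of -0.77 (SE 0.26, adjusted p = 0.31) and JAG2 of -0.88 (SE 0.35, adjusted p = 0.36). None passed an adjusted p under 0.1. The edgeR fit called no feature at all (0.0% of 26259), TP63 itself included (-1.94, SE 0.13, adjusted p = 0.12). These 5 Notch genes and 3447 of all features (13.1%) had an unadjusted p under 0.05. DESeq2 on the same counts called 2019 features (7.69%) and the same 5 genes, with an adjusted p between 1.3e-07 for JAG1 and 0.087 for JAG2. The call on these genes thus depended on the tool, and their direction did not.

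Upon silencing of SOX2 the ligands and receptors stood mostly on the other side of scramble. In TE5, NOTCH2 had 10470 normalised counts against 6748 (log2 change 0.63, 0.59 to 0.68), HEY1 had 2201 against 1478 (0.57, 0.48 to 0.67), and JAG1 had 21647 against 16076 (0.43, 0.40 to 0.46). JAG2 (0.31), HES1 (0.27) and NOTCH1 (0.14) were also above scramble. The exceptions were NRARP with 2031 against 3628 (-0.84, -0.92 to -0.76), NOTCH3 with 1259 against 1931 (-0.62, -0.72 to -0.51), DLL1 at -0.42 and HES5. Only HES5, at 5 counts against 18, was past -1 (5.69% of all features were), and no gene was past 1 (7.05% of all features were). Below scramble were 50.5% of all features and 54.3% of those with at least 1000 counts. The squamous markers summed to 1090 TPM, against 1355 in TE5 scramble, and their part was not tested.

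In KYSE140 cells with SOX2 shRNA all 3 receptors were above scramble. NOTCH2 had 11584 normalised counts against 6070 (log2 change 0.93, 0.88 to 0.98), NOTCH3 had 91814 against 61443 (0.58, 0.56 to 0.60) and NOTCH1 had 30392 against 21489 (0.50, 0.47 to 0.53). JAG2 (0.51), JAG1 (0.42) and NRARP (0.16) were also higher, whereas HEY1 (-0.41), DLL1 (-0.38) and HES1 (-0.28) were lower. No gene passed the fold in either direction (6.88% of all features were past -1 and 7.99% past 1). NOTCH2, JAG1, JAG2 and NOTCH1 were thus above scramble and DLL1 below it in both lines. Of all features in the KYSE140 comparison, 45.0% were below scramble, and 42.0% of those with at least 1000 counts. The squamous markers, TP63 and SOX2 among them, summed to 18546 TPM with SOX2 shRNA, against 13681 in KYSE140 scramble. Their part in the Notch values was not tested.

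In the combined fit, NOTCH2 had the largest estimate for SOX2 silencing, 0.76 (SE 0.14, edgeR adjusted p = 0.27). JAG1 (0.41, SE 0.13, adjusted p = 0.51) and DLL1 (-0.42, SE 0.16, adjusted p = 0.56) followed. None of the 9 genes was called by edgeR (14 of all features were, 0.0533%). These 3 genes had an unadjusted p under 0.05, as had 8.57% of all features. DESeq2 called NOTCH2 alone of the 9 (adjusted p = 0.00049), where it called 2.88% of all features. SOX2 itself was not called by edgeR (-0.89, SE 0.23, adjusted p = 0.41).

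CCAT1 was silenced in TE5 only. Both HES1 (4767 normalised counts against 3960 in scramble, log2 change 0.27, 0.21 to 0.33) and NRARP (3662 against 3628, 0.01, -0.05 to 0.08) were at or above scramble, the latter at -0.03 with the size factors of DESeq2. The other 8 genes were lower. NOTCH3 stood at -0.69, JAG2 at -0.68 with 9510 normalised counts against 15260, DLL1 at -0.64, NOTCH1 at -0.52 with 7189 against 10323, HEY1 at -0.48, NOTCH2 at -0.29 and JAG1 at -0.19. The NOTCH3 value was carried by its long transcript, since its summed TPM lay at 0.19 on the log2 scale. The DLL1 values are uncertain, since an adjoining transcript that the annotation lacks (ENST00000540480) holds 45.9% as many counts as DLL1 and was not counted with it. With that transcript added, a choice made after the data were seen, DLL1 stood at -1.08 for CCAT1 silencing, at -1.29 for TP63 silencing and at -0.58 for SOX2 silencing in TE5, and at -0.63 and -0.34 for the last 2 in KYSE140. HES5 was the only gene past -1 (6.85% of all features were). The median over the 10 genes was -0.50, against 0.03 over all features and -0.07 over features with at least 1000 counts, where none of 9 Notch genes was past -1 (0.565% of all). The squamous markers summed to 706 TPM in this library, against 1355 in scramble, and their part in the Notch values was not tested.

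The libraries with TP63 and SOX2 shRNA of a line came from the same lane, and setting them against each other asks where the silencing of either factor left the pathway without the scramble library. In TE5, 8 of 9 genes were lower with TP63 shRNA than with SOX2 shRNA. So were 47.9% of all features and 60.3% of those with at least 1000 counts. Of the 9 genes, 4 were past -1 (7.11% of all features and 4.02% of those with at least 1000 counts were). JAG2 stood at -2.0 (-2.04 to -1.96), with 4741 against 18967 normalised counts. JAG1 stood at -1.50 (-1.54 to -1.47), with 7627 against 21647, NOTCH1 at -1.19 (-1.24 to -1.15) and HEY1 at -1.08 (-1.18 to -0.98). NOTCH2 (-0.90), DLL1 (-0.72), HES1 (-0.42) and NRARP (-0.40) were lower by less, and NOTCH3 was higher (0.38).

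In KYSE140, 8 of 9 genes were again lower with TP63 shRNA, as were 49.5% of all features and 57.4% of those with at least 1000 counts. JAG1, with 7654 against 17985 normalised counts, was the only one past -1 (-1.23, -1.27 to -1.19), where 7.5% of all features and 2.76% of those with at least 1000 counts were. NOTCH1 (-0.89), NOTCH2 (-0.87), NOTCH3 (-0.85), JAG2 (-0.70), NRARP (-0.42), DLL1 (-0.30) and HES1 (-0.11) were lower and HEY1 was higher (0.36). NOTCH3 and HEY1 were the 2 genes whose sign differed between the lines.

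In the combined fit, JAG1 (log2 difference -1.33, SE 0.13, edgeR adjusted p = 0.040), NOTCH2 (-0.85, SE 0.14, adjusted p = 0.070) and NOTCH1 (-1.0, SE 0.17, adjusted p = 0.080) were called lower with TP63 shRNA than with SOX2 shRNA. That is 3 of the 9 genes tested, where 2.21% of all features were called and 1.34% were called lower. JAG2 had an estimate of similar size but a larger error (-1.26, SE 0.35, adjusted p = 0.17), DLL1 stood at -0.47 (SE 0.16, adjusted p = 0.24), and the targets HES1 (-0.24), HEY1 (-0.35) and NRARP (-0.38) had an adjusted p of 0.53 or more. DESeq2 called the same 3 genes and also JAG2 and DLL1, against 10.7% of all features. The calls rested on few libraries: without the TE5 scramble or without the KYSE140 scramble library the fit called no Notch gene and no other feature, with an adjusted p between 0.17 and 0.21 for the 3 genes and estimates that moved by at most 0.01. Without the SOX2 library of TE5 or of KYSE140, JAG1 alone of the 9 was called, beside 1.44% and 1.71% of all features. Without the KYSE140 library with TP63 shRNA, JAG2 and DLL1 were called as well, where the share over all features also went up, to 6.78%.

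**Figure D3:**
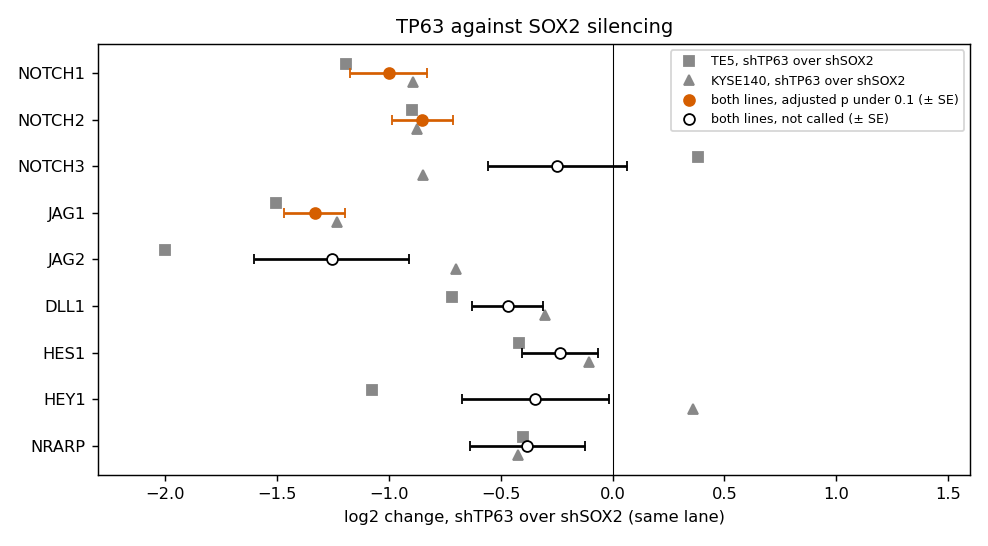
Log2 change of TP63 shRNA over SOX2 shRNA for the 9 Notch genes tested, in TE5 (squares), in KYSE140 (triangles) and in the combined fit (circles ± SE); filled circles passed an adjusted p under 0.1 in edgeR. JAG1, NOTCH1 and NOTCH2 are filled, and the 2 lines lie on different sides of 0 for NOTCH3 and HEY1.

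The library with CCAT1 shRNA shared that lane in TE5. Against TP63 shRNA it was higher for NRARP (log2 change 1.25, 1.18 to 1.33), JAG2 (1.0, 0.96 to 1.05) and JAG1 (0.88, 0.85 to 0.92), and 2 of the 9 genes were past 1 (11.1% of all features were). Against SOX2 shRNA it was lower for HEY1 (-1.06), JAG2 (-1.0) and NOTCH2 (-0.93) and higher for NRARP (0.85), with HEY1 alone past -1 (8.76% of all features were) and HES1 at 0.00 (-0.06 to 0.06).

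The rest of the pathway was counted over 46 genes listed by role: the receptor NOTCH4, the ligands DLL3 and DLL4, 6 other HES and HEY genes, 9 genes of receptor processing, 5 glycosyltransferases that modify the receptors, 10 genes of the nuclear complex and its corepressors, and 13 genes of endocytosis and turnover. Upon silencing of TP63 in TE5, 24 of these 46 were below scramble and 22 above, with a median of -0.02, against -1.07 for the 10 Notch genes. In KYSE140 the counts were again 24 and 22, with a median of -0.01 against -0.27. The 9 genes of receptor processing (ADAM10, ADAM17, FURIN and the gamma-secretase subunits) lay between -0.25 and 0.70 in TE5 and between -0.21 and 0.29 in KYSE140. The 10 nuclear genes, RBPJ and the MAML coactivators among them, lay between -0.69 and 0.84 in TE5 and between -0.34 and 0.23 in KYSE140. None of the 46 was called by edgeR in either silencing contrast or between TP63 and SOX2 shRNA. An unadjusted p under 0.05 was reached by 5, 3 and 9 of them (13.1%, 8.57% and 16% of all features). DESeq2 called 5, 2 and 6 (7.69%, 2.88% and 10.7% of all features).

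A few of these genes were past the fold and had at least 100 estimated counts, before normalisation, in the higher library. In TE5 with TP63 shRNA, HES2, a HES-family repressor, had 358 normalised counts against 1198 (log2 change -1.74, -1.90 to -1.59), DTX3L, a ubiquitin ligase of the Deltex family, had 13340 against 27237 (-1.03, -1.06 to -1.0), and DLL4, a Delta-family ligand, had 79 against 34 (1.21, 0.65 to 1.86). In TE5 with SOX2 shRNA, LFNG, the Fringe enzyme that adds N-acetylglucosamine to the receptors, had 1109 against 2265 (-1.03, -1.14 to -0.92). In KYSE140 with SOX2 shRNA, HES6, an antagonist of HES1, had 658 against 1799 (-1.45, -1.60 to -1.31) and HEYL had 324 against 131 (1.30, 0.96 to 1.65). Each of these 6 genes was past the fold in 1 of the 5 comparisons. An adjoining transcript that the annotation lacks holds 63.5% as many counts as HES2, which leaves the HES2 value uncertain. Between the lines, 37 of the 46 were called, 26 lower in TE5 and 11 higher. Of all features, 64.0% were called in either direction and 30.7% were called lower in TE5.

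**Figure D4:**
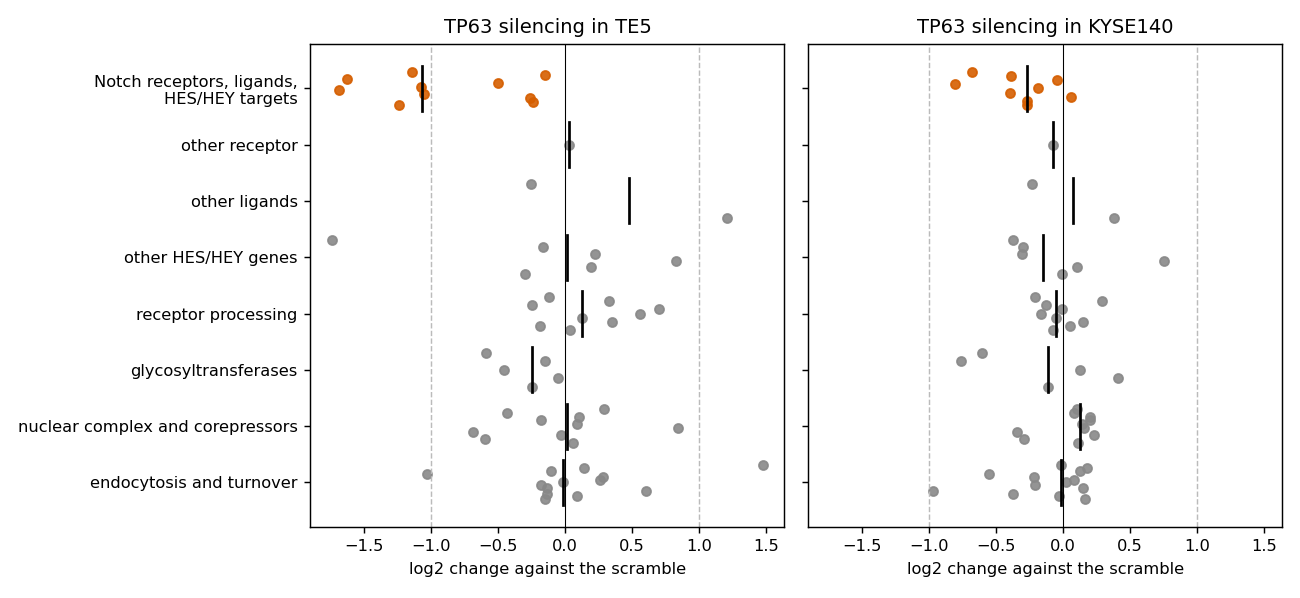
Log2 change upon TP63 silencing in TE5 and in KYSE140 for the 10 Notch genes (orange, those with at least 10 counts) and the 46 other pathway genes by role (grey), with the median of each row as a black bar. The median of the Notch genes is -1.07 in TE5 and -0.27 in KYSE140, and that of all other pathway genes is -0.02 and -0.01.

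The genes lie, in hg19, at chr9:139388885-139440500 (NOTCH1), chr1:120454176-120643366 (NOTCH2), chr19:15269849-15311806 (NOTCH3), chr20:10618332-10654647 (JAG1), chr14:105607319-105635161 (JAG2) and chr6:170591294-170615653 (DLL1). The targets lie at chr3:193853937-193856521 (HES1), chr1:2460184-2461702 (HES5), chr8:80674606-80680092 (HEY1) and chr9:140194083-140196723 (NRARP). All but HES1 are on the minus strand.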

How the data were processed

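RNA-Seq of 7 ESCC libraries (100 bp paired-end) was analysed, with groups taken from the labels. The authors pseudoaligned reads with Kallisto to the hg19 Ensembl release 82 transcriptome and deposited estimated counts and TPM values per transcript; the deposited TPM are scaled to transcript length and library. The submitters' processing notes also name DESeq2. Transcripts were summed to genes with GENCODE 44 on hg19 (93.6% of counts), and through identical neighbours in the files (3.72%; the rule held for 99.69% of annotated transcripts flanked in that way); 2.68% stayed single transcripts. Genes and lists were chosen with earlier results of these data known. Members were all named; other pathway genes only with at least 100 counts and past a log2 change of 1 or called.

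Pairs of libraries were compared as log2((shRNA + 1)/(scramble + 1)) of TMM-normalised counts (genes with at least 10 counts in 1 library), with exact Clopper-Pearson 95% intervals for counting error. Estimated counts were rounded for edgeR 4.0.16 (R 4.3.3; quasi-likelihood test, cell line as block, filterByExpr, 26259 features, Benjamini-Hochberg adjusted p under 0.1; CCAT1 shRNA left out), which takes the lines as replicates. DESeq2 1.42.0 was an alternative. Scripts were tested on simulated data. Whether libraries came from separate cultures is not given in the sources used here.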

Additional observations from a re-analysis of the deposited data

Results flagged for a closer look

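Several Notch genes stood on opposite sides of scramble in TE5 and KYSE140 under the same shRNA, each with a counting interval that left out 0. With 1 library per condition and line, these differences between the lines were not tested. Upon silencing of SOX2, NOTCH3 had a log2 change of -0.62 in TE5 and 0.58 in KYSE140; on TPM the TE5 value was 0.04. NRARP stood at -0.84 in TE5 and 0.16 in KYSE140, the latter at -0.01 on TPM. HEY1 stood at 0.57 in TE5 and -0.41 in KYSE140. HES1 stood at 0.27 in TE5 and -0.28 in KYSE140. Upon silencing of TP63, NOTCH2 stood at -0.26 in TE5 and 0.058 in KYSE140. SOX2 itself was at 39.5% of scramble in TE5 and 76.9% in KYSE140; the part of this gap in the differences was not tested.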

How the results depend on the processing

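Of the 48 values of single genes against scramble, 7 changed sign under at least 1 of 338 alternative computations: NOTCH3 for each shRNA in TE5, HES1 for TP63 silencing and NRARP for CCAT1 silencing in TE5, and HEY1 for TP63 silencing and NRARP for SOX2 silencing in KYSE140. None of these was past the fold. Past -1, TP63 silencing in TE5 left 3 of 10 genes with total-count scaling and 3 on TPM (6 with TMM). With a pseudocount of 10 or a minimum of 50 counts, SOX2 and CCAT1 silencing in TE5 left 0 genes (1, HES5, otherwise). With a minimum of 1 count, TP63 silencing in KYSE140 gave 1, again HES5. The share of all features past -1 was not counted under these alternatives. With TMM and at least 10 counts it was 6.46% for TP63 silencing in TE5. In the fits of both lines, DESeq2 called 5 Notch genes for TP63 silencing, 1 for SOX2 silencing and 5 between them (7.69%, 2.88% and 10.7% of all features), against 0, 0 and 3 by edgeR (0.0%, 0.0533% and 2.21%). Without the filter on low counts, edgeR called 2 for TP63 silencing and 1 for SOX2 silencing (1.54% and 0.422% of all features). Without the cell line as block, 0 were called between TP63 and SOX2 shRNA, and HEY1 stood at -0.083 for SOX2 silencing. The cause was not tested. Leaving out each library in turn gave between 0 and 4 called genes for TP63 silencing (4 without the KYSE140 library with TP63 shRNA), between 0 and 1 for SOX2 silencing and between 0 and 5 between them, where the share of all features called went up to 5.73%, 1.69% and 6.78%; a lone library is then assumed to vary like the others. Over the same fits, the log2 change for TP63 silencing ranged from -0.23 to 0.035 for NOTCH2, from -0.60 to 0.051 for NOTCH3 and from -0.76 to 0.16 for HEY1. For SOX2 silencing it ranged from -0.62 to 0.56 for NOTCH3, from -0.25 to 0.21 for HES1, from -0.55 to 0.69 for HEY1 and from -0.84 to 0.10 for NRARP. Between TP63 and SOX2 shRNA it ranged from -0.81 to 0.38 for NOTCH3 and from -0.95 to 0.28 for HEY1. NOTCH1, JAG1, JAG2 and DLL1 kept their sign in these fits, but their size moved. For TP63 silencing JAG2 stood at -0.26 without the TE5 library with TP63 shRNA and at -1.63 without that of KYSE140, and between TP63 and SOX2 shRNA at -0.64 and -2.04. NOTCH1 ranged from -0.96 to -0.48 for TP63 silencing (-0.48 without TE5 scramble), NRARP from -1.22 (without KYSE140 scramble) to -0.28 (without TE5 scramble), and DLL1 from -0.72 to -0.28 between TP63 and SOX2 shRNA (without the KYSE140 and the TE5 library with TP63 shRNA). For SOX2 silencing JAG2 ranged from 0.018 (without KYSE140 scramble) to 0.82 and NOTCH1 from 0.058 to 0.53 (both highest without TE5 scramble). The cell line block paired the libraries within a line; the labels give no replicate numbers to pair further. Depth limited HES5 only, with at most 18 counts.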
